A study of Rattus norvegicus and Mus musculus with 251 samples.

Results

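The genes described here encode the proteins that act directly after an opioid receptor: the inhibitory G protein alpha subunits Gnai1, Gnai2, Gnai3 and Gnao1, the potassium channel subunits Kcnj3, Kcnj6 and Kcnj9, the calcium channel subunit Cacna1b, and the receptor adaptors Arrb1 and Arrb2. They were chosen by name, and each of the 10 symbols matched 1 of the 46078 gene identifiers in the mouse count table. All 10 are annotated as protein-coding genes. The libraries were made from total RNA of 0.5 mm brain punches of C57BL6J mice, with 30 libraries of prefrontal cortex (PFC) and 32 of nucleus accumbens (NAc). The groups were saline (6 PFC and 7 NAc libraries), chronic morphine (8 and 8), 24 h after morphine (9 and 9) and 2 weeks after morphine (7 and 8), each with females and males. The labels give no morphine dose, route or age, and they do not say whether each library is a separate animal, so p-values measure the spread between these libraries.

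Opioid receptors couple to the Gi and Go family of G proteins. On activation the alpha subunit inhibits adenylyl cyclase, while the released beta and gamma subunits open G protein-gated inwardly rectifying potassium (GIRK) channels and restrain N-type calcium channels, which together make a neuron less excitable and reduce transmitter release. Arrestins bind the phosphorylated receptor, end its coupling to G proteins and help to internalise it.

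The 4 alpha subunits end in nearly the same stretch of protein, in which the cysteine that is the fourth residue from the end is the one modified by pertussis toxin, the toxin used to block receptor coupling. The last 30 coding bases of each (GENCODE M21 transcripts, GRCm38) are shown to let the genes be compared at this shared site, with the cysteine codon in capitals.
Gnai1: aagaataacctaaaagacTGTggtctcttc
Gnai2: aagaacaacctgaaggacTGTggcctcttc
Gnai3: aaaaacaacttaaaggaaTGTgggctttat
Gnao1: gccaacaatctccggggcTGCggcttgtac
Gnai1 and Gnai2 differed at 4 of these 30 bases, and Gnai1 and Gnao1 at 15. GIRK subunits share the glycine, tyrosine and glycine of the potassium selectivity filter, whose codons are in capitals in the 39 coding bases around them.
Kcnj3: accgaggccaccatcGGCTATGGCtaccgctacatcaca
Kcnj6: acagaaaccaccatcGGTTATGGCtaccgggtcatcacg
Kcnj9: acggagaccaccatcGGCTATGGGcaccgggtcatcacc
The Kcnj6 and Kcnj9 stretches differed at 6 bases. The gene bodies in that annotation are as follows. Of the alpha subunits, Gnai1 lies at chr5:18265135-18360355, minus strand, Gnai2 at chr9:107614125-107635367, minus strand, Gnai3 at chr3:108107280-108146146, minus strand, and Gnao1 at chr8:93809966-93969388, plus strand. Of the GIRK subunits, Kcnj3 lies at chr2:55435970-55598145, plus strand, Kcnj6 at chr16:94748636-94997701, minus strand, and Kcnj9 at chr1:172320501-172329318, minus strand. Cacna1b lies at chr2:24603887-24763152, minus strand, Arrb1 at chr7:99535466-99606771, plus strand, and Arrb2 at chr11:70432635-70440828, plus strand. Paralogs bear on counting, because the table sets reads with non-unique alignments apart from the genes. Over the whole transcripts, the longest run of bases shared by any 2 members of a family was 32 bases (Gnai1 and Gnai2), shorter than the 75-base reads, and the aligned coding sequences were 68.8% (Gnai3 and Gnao1) to 78.7% identical (Gnai1 and Gnai2). Of the 10 members, 9 have an annotated gene that overlaps them, none with a median above 2.90 CPM, the counts of a gene scaled to a fixed library total, that of Gm26794 (opposite in strand to Kcnj3). Whether the counting used strand was not given in the sources used here.

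Totals per library ran from 5182601 to 41532464 counts in PFC and from 22387525 to 43963295 in NAc. PFC number 10, a female library of the 2 weeks group, stood apart with the lowest total and 21.1% unaligned reads, against at most 1.92% in every other library. The 9 markers of striatal projection neurons summed to 444 to 8813 CPM in NAc and 184 to 358 in PFC. The 7 markers of cortical projection neurons summed to 33.0 to 691 in NAc and 1823 to 4533 in PFC, and Neurod6 was at 0 in some NAc libraries. NAc numbers 6 (saline, male) and 25 (chronic morphine, female) had the lowest mean striatal marker levels, 4.92 and 5.16 on the log2 CPM scale against a median of 8.07. The labels give the cell type as neuron, but the 6 oligodendrocyte markers summed to 3146 to 13620 CPM, so glial RNA was present in the libraries of both regions. In such bulk tissue, fewer cells of a type and less RNA per cell cannot be told apart.

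Levels of different genes were compared in CPM divided by the kilobases of exon. This length joined all annotated exons of a gene, 3135 bases for Gnai1 and 11053 for Gnao1. The length of the transcripts expressed was not estimated, so the order of genes and the shares per kilobase depend on this choice. In plain CPM the PFC median of Gnao1 (753) lay above that of Gnai1 (247). In PFC the order by median was Gnai1 (78.8), Gnai2 (72.0), Gnao1 (68.1), Kcnj9 (52.7), Arrb1 (45.1), Kcnj3 (28.4), Arrb2 (11.1), Gnai3 (11.1), Cacna1b (10.1) and Kcnj6 (2.56). Ranges of neighbours did not overlap between Arrb1 and Kcnj3, between Kcnj3 and Arrb2, or between Cacna1b and Kcnj6. The 3 highest alpha subunits were not separated by their spread, since Gnai1 was above Gnai2 in 18 of 30 libraries and Gnai2 above Gnao1 in 16. In NAc the same 3 genes led, at 71.1, 67.5 and 54.5 CPM per kilobase, followed by Arrb1 (33.4), Kcnj9 (14.98), Cacna1b (12.1), Gnai3 (10.97), Arrb2 (10.7), Kcnj3 (6.59) and Kcnj6 (0.367). There, Gnao1 lay above Arrb1 and Kcnj3 above Kcnj6 without overlap, whereas the ranges of the other neighbours overlapped. Kcnj9 ranked above Arrb1 in 24 of 30 PFC libraries and below it in all 32 NAc libraries.

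**Figure D1:**
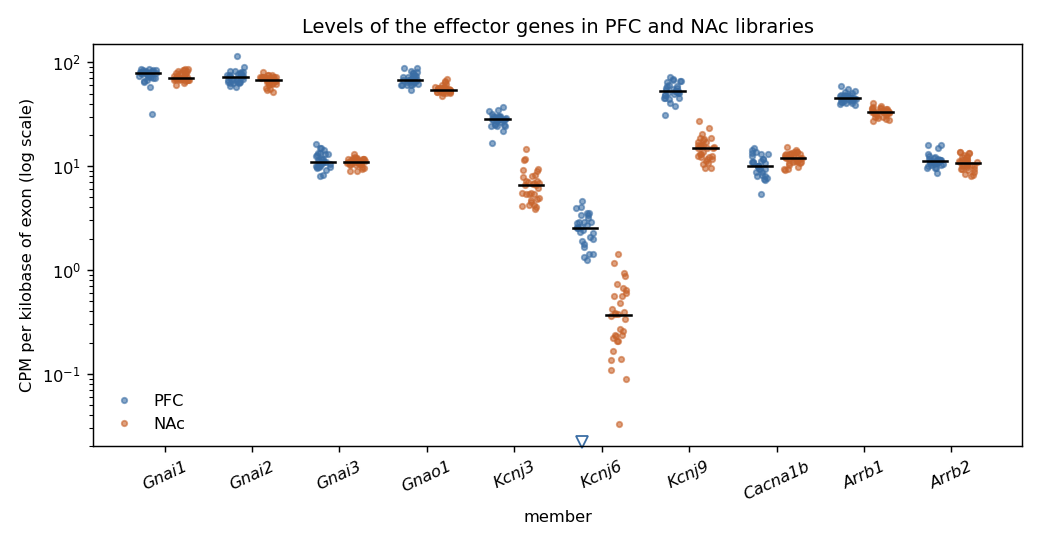
Each point is 1 library, at its CPM per kilobase of exon on a log scale, by gene and region (30 PFC and 32 NAc libraries), and black lines are medians. The open triangle marks Kcnj6 in PFC number 10, which had a count of 0, and the 3 GIRK subunits (Kcnj3, Kcnj6, Kcnj9) are the members whose points lie far lower in NAc.

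The GIRK subunits had the largest regional differences among the members. Kcnj3 (GIRK1), which needs a partner subunit to reach the membrane, had 86.5, 148 and 192 CPM in PFC (lowest, median and highest) and 20.2, 34.4 and 75.8 CPM in NAc. Its ranges did not overlap, and it was lower in NAc in 30 of 30 numbers that had a library from each region. Averaged over treatments and sexes, the log2 difference was -2.05 ± 0.10 (SE, edgeR adjusted p = 7.71e-25), which is 0.241 times the PFC level (95% interval 0.210 to 0.277). Kcnj9 (GIRK3), a subunit known to route channels towards endosomes, had 133, 226 and 310 CPM in PFC and 41.4, 64.2 and 116 CPM in NAc. It did not overlap between the regions either and was lower in NAc by 1.83 ± 0.08 on the log2 scale (edgeR log2 fold change -1.83, adjusted p = 3.58e-27).

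Kcnj6 (GIRK2), the subunit able to form channels alone and the one altered in weaver mice, had the lowest level per kilobase in both regions. Its level was 0, 19.6 and 35.2 CPM in PFC and 0.253, 2.80 and 10.98 CPM in NAc. The 0 was PFC number 10, where a count of 0 allows up to 3 counts or 0.580 CPM, for counting error only; the other 29 PFC libraries began at 9.59 CPM. The highest NAc library, number 24, lay above that value, and NAc was below PFC in 29 of 30 shared numbers. The log2 difference was -2.55 ± 0.24 (edgeR adjusted p = 1.28e-13), and it was -2.78 ± 0.22 without PFC number 10 and NAc numbers 6 and 25. Of the summed GIRK level per kilobase, the median share of Kcnj6 was 3.03% in PFC and 1.65% in NAc, that of Kcnj3 33.5% and 30.03%, and that of Kcnj9 63.6% and 68.0%. The sum itself had a median of 84.6 CPM per kilobase in PFC and 22.2 in NAc.

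**Figure D2:**
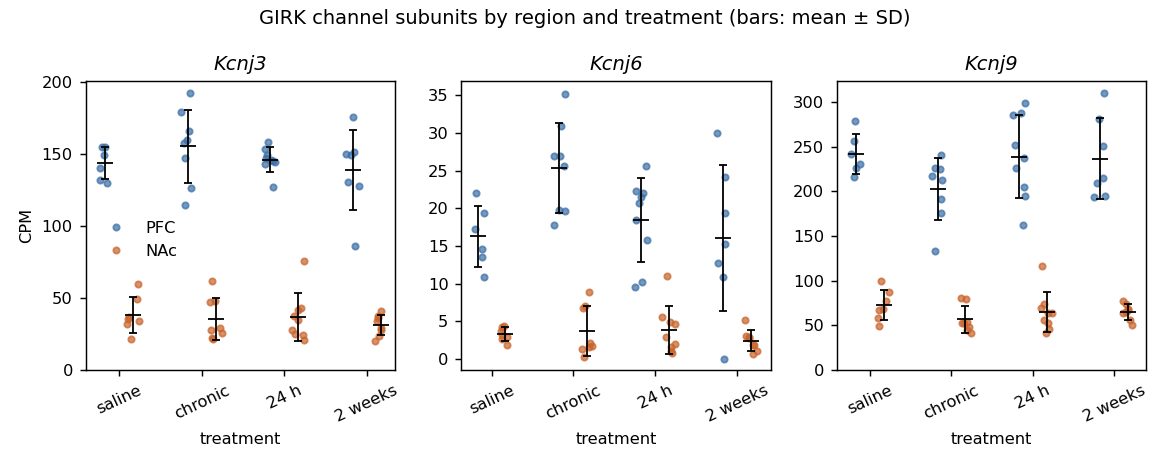
CPM of Kcnj3, Kcnj6 and Kcnj9 in each library by region and treatment, with black bars for the mean ± SD of a group (6 to 9 libraries). For Kcnj3 and Kcnj9 every NAc library lies below every PFC library, and within a region the ranges of the treatments overlap.

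Among the G protein alpha subunits, the regional differences were small beside those of the channels. Gnao1, the Go subunit abundant in neurons, had 594, 753 and 980 CPM in PFC and 518, 602 and 760 CPM in NAc. Its ranges overlapped, and NAc was below PFC in 27 of the 30 shared numbers. The log2 difference was -0.32 ± 0.04 (edgeR adjusted p = 1.28e-10). Gnai2, the Gi subunit also found widely outside the brain, had 216, 272 and 435 CPM in PFC and 197, 255 and 305 CPM in NAc, with ranges that overlapped. Its difference of -0.13 ± 0.05 (edgeR adjusted p = 0.0144) lost its call without PFC number 10, the library at 435 CPM (adjusted p = 0.0510), and with DESeq2 (adjusted p = 0.0736). Without PFC number 10 and NAc numbers 6 and 25 together it stayed called (-0.10 ± 0.04, edgeR adjusted p = 0.0353).

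Gnai1, the Gi subunit enriched in brain, had 99.5, 247 and 268 CPM in PFC and 188, 223 and 272 CPM in NAc. Its log2 difference was -0.04 (95% interval -0.15 to 0.06, edgeR adjusted p = 0.486). Gnai3, the remaining Gi subunit, had 25.9, 36.1 and 53.6 CPM in PFC and 29.2, 35.8 and 42.8 CPM in NAc, with a log2 difference of -0.08 (95% interval -0.17 to 0.02, edgeR adjusted p = 0.146). Neither passed the threshold of an adjusted p of 0.05 over all genes, and both intervals exclude a change of the size seen for Gnao1. In saline libraries only, Gnai1 was called, at -0.20 ± 0.07 (edgeR adjusted p = 0.0412), and Gnai2 was not.

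Cacna1b, the pore of the N-type calcium channel that Gi/o-coupled receptors inhibit at terminals, was the 1 member higher in NAc. It had 53.7, 100.3 and 147 CPM in PFC and 92.0, 120.0 and 152 CPM in NAc. Its ranges overlapped, and NAc was below PFC in 7 of the 30 shared numbers. The log2 difference was 0.23 ± 0.06 (edgeR adjusted p = 0.00123).

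Of the arrestins, Arrb1 was lower in NAc and Arrb2 did not pass the test. Arrb1, the more abundant of them, had 429.6, 504 and 666 CPM in PFC and 301, 373 and 451 CPM in NAc. It was lower in NAc in 30 of 30 numbers, although the highest NAc value lay above the lowest PFC value, with a log2 difference of -0.47 ± 0.04 (edgeR adjusted p = 1.35e-16). Arrb2, the arrestin most often linked to opioid receptor desensitisation in mice, had 24.2, 31.7 and 45.8 CPM in PFC and 22.6, 30.3 and 38.8 CPM in NAc, and its log2 difference of -0.08 (95% interval -0.19 to 0.03) did not pass the test (adjusted p = 0.174) and had the other sign in saline libraries only (0.05 ± 0.09). Arrb2 accounted for a median of 19.6% of the summed arrestin level per kilobase in PFC and 25.1% in NAc.

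In all, edgeR called 7 of the 10 members between the regions, where 66.2% of the 19266 genes tested were called. Of these members 6 were lower in NAc, against 29.7% of all genes, and 1 was higher, against 36.5%. The count of 7 in 10 is near the share of all genes called. The median log2 difference was -0.22 over the members and 0.07 over all genes. The regions also differed in the cell type markers given above, in the same fit: all 9 striatal markers were higher and all 7 cortical markers lower in NAc. The part of tissue composition in these differences was not tested.

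Other genes of the pathway were read from 8 lists with 49 genes, all of which were tested between the regions. There 41 were called (66.2% of all genes), 18 lower (29.7% of all genes) and 23 higher in NAc (36.5% of all genes), with a median log2 difference of 0.19. Called members were 6 of 9 other alpha subunits (4 lower), 4 of 5 beta subunits (1 lower), 9 of 10 gamma subunits (3 lower), 4 of 5 regulators of alpha subunits (2 lower), both of Kcnj5 and Snx27, a GIRK subunit and a protein that sorts GIRK channels (both higher), 9 of 9 calcium channel partners (5 lower), 4 of 5 receptor kinases (3 lower) and 3 of 4 opioid receptors (all higher). The 4 genes with the smallest adjusted p were Grk2, Oprk1, Cacna2d2 and Ric8b. Grk2, the kinase that primes receptors for arrestin binding, differed by -1.18 ± 0.04 on the log2 scale (edgeR adjusted p = 2.52e-32). Oprk1, the kappa opioid receptor, differed by 4.22 ± 0.18 (adjusted p = 5.45e-27) from a PFC median of 1.30 CPM to an NAc median of 27.7 CPM. Cacna2d2, a calcium channel auxiliary subunit, and Ric8b, a chaperone of alpha subunits of the Gs class, were higher in NAc by 2.08 ± 0.09 and 1.28 ± 0.06.

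Within NAc, edgeR called 7 of the 10 members for a slope on how striatal a library was, while Gnai1, Gnai3 and Cacna1b did not pass that test. Of the 7, Arrb1 did not pass by correlation. A striatal score, the mean log2 CPM of the 9 striatal markers, ranged from 4.92 to 9.34 over the 32 NAc libraries. In the 4 libraries with a score under 7, Kcnj3 was at 60.03, 61.6, 49.4 and 41.8 CPM, against a median of 34.4 over all 32. In the library with the highest score, number 28 of chronic morphine, Kcnj3 was at 21.8 CPM, Kcnj6 at 0.253 CPM and Kcnj9 at 41.5 CPM. The highest level of each GIRK subunit was in number 24, at 75.8, 10.98 and 116 CPM, and this library also had the highest cortical markers of all NAc libraries (mean log2 CPM 4.23, median 1.52).

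In a fit chosen after the data had been seen, with the score beside the treatment-by-sex means, edgeR called 7 of the 10 members for a slope, where 43.4% of all genes were called. Lower with a higher score were 5 members, against 22.7% of all genes, and higher were 2, against 20.7%. Per unit of score the log2 slopes were -0.76 ± 0.16 for Kcnj6 (adjusted p = 0.000267), -0.38 ± 0.05 for Kcnj3 (adjusted p = 1.84e-06), -0.25 ± 0.04 for Kcnj9 (adjusted p = 2.3e-05), -0.13 ± 0.03 for Arrb2 (adjusted p = 0.000202) and -0.11 ± 0.02 for Gnai2 (adjusted p = 4.19e-05). Gnao1 and Arrb1 had slopes of 0.06 ± 0.02 each (adjusted p = 0.00652 and 0.0262). Without NAc numbers 6 and 25 the slope of Kcnj6 was -1.21 ± 0.23 and the call of Arrb1 was lost (adjusted p = 0.295), while the other 6 stayed called. In PFC without number 10, 0 members were called for a slope on this score (lowest member adjusted p = 0.771) and 0.275% of all genes were called; the score spanned only 3.03 to 4.01 there.

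As a direct measure, Pearson's r of Kcnj3 with the striatal score over the 32 NAc libraries was -0.83 and Spearman's rho was -0.90, each with a permutation p of 1e-05, the smallest that 100000 resamples can give (adjusted over 165 relations 8.68e-05 and 0.00015). Kcnj6 had r = -0.73 and rho = -0.86, Kcnj9 r = -0.77 and rho = -0.87, Gnai2 r = -0.77 and rho = -0.82, and Arrb2 r = -0.69 and rho = -0.71, with the same permutation p. Gnao1 had r = 0.67 (permutation p = 0.0001, adjusted 0.000589) and rho = 0.73 (permutation p = 2e-05, adjusted 0.000206). Arrb1 had r = 0.41 (permutation p = 0.01881, adjusted 0.0517) and rho = 0.21 (permutation p = 0.2421, adjusted 0.408), and its r was 0.18 without the 2 libraries farthest from the median score. Without the 2 libraries farthest from the median score r of the 5 negative relations lay between -0.82 (Gnai2) and -0.69 (Arrb2), and r of Gnao1 was 0.75.

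**Figure D3:**
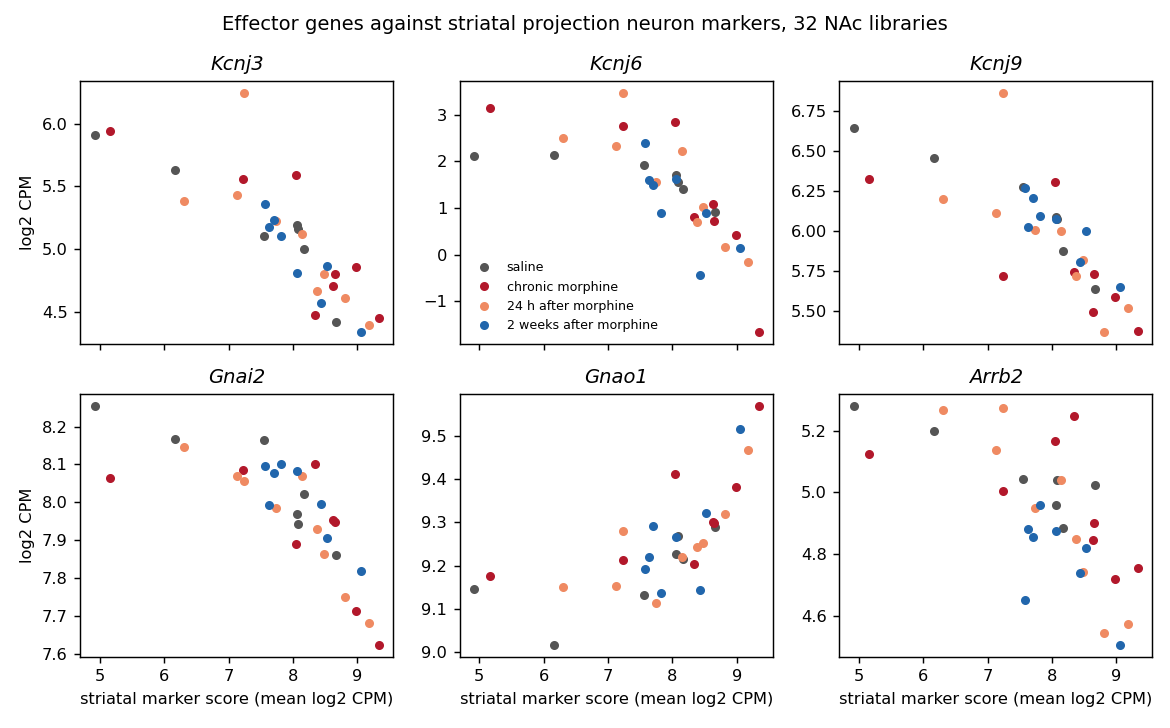
Log2 CPM of 6 members against the striatal marker score of the same NAc library (32 points, coloured by treatment). Kcnj3, Kcnj6, Kcnj9, Gnai2 and Arrb2 lie lower in libraries with a higher score (r from -0.83 to -0.69) and Gnao1 lies higher (r = 0.67).

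The GIRK subunits varied together across NAc libraries. Pearson's r was 0.87 between Kcnj3 and Kcnj6, 0.86 between Kcnj3 and Kcnj9 and 0.78 between Kcnj6 and Kcnj9, each with a permutation p of 1e-05 and with rho of 0.89, 0.85 and 0.79. Without the 2 libraries farthest from the median of the first gene, r was 0.83, 0.83 and 0.79. Gnai2 and Gnao1 ran opposite to each other, with r = -0.83 and rho = -0.80 (permutation p = 1e-05) and r = -0.74 without the 2 farthest libraries.

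In PFC without number 10, Kcnj3 and Kcnj6 also varied together (r = 0.62, permutation p = 0.00038; rho = 0.68, permutation p = 6e-05; adjusted 0.00179 and 0.00043), with r = 0.69 without the 2 libraries farthest from the median of Kcnj3. In the same 29 libraries, Gnao1 varied with Cacna1b (r = 0.76, rho = 0.78, permutation p = 1e-05) and with Arrb1 (r = 0.76, permutation p = 1e-05; rho = 0.69, permutation p = 8e-05). Cacna1b also varied with Kcnj6 (r = 0.75, rho = 0.75, permutation p = 2e-05), while Kcnj6 and Kcnj9 had r = -0.06 and rho = -0.06 over these 29 libraries (permutation p = 0.743 and 0.7555). Without the 2 libraries farthest from the median of the first gene, r was 0.70 for Gnao1 and Cacna1b, 0.63 for Gnao1 and Arrb1, and 0.80 for Kcnj6 and Cacna1b. Gnai1 and Gnai3 moved together (r = 0.68, permutation p = 2e-05; rho = 0.70, permutation p = 5e-05), with r = 0.69 without the 2 farthest libraries. Gnai1 and Arrb2 ran opposite to each other (r = -0.63, rho = -0.56, permutation p = 0.00035 and 0.00185), with r = -0.49 without the 2 farthest. So did Gnai2 and Kcnj3 (r = -0.63, rho = -0.62, permutation p = 0.00036 and 0.00041), with r = -0.53 without the 2 farthest. Over the 32 NAc libraries Gnai2 and Kcnj3 had the other sign (r = 0.63, rho = 0.59, permutation p = 0.00014 and 0.00066). Adjusted over the 165 relations, each of the 4 positive relations of Gnao1, Cacna1b and Gnai1 given here had p of at most 0.000508. The negative relation of Gnai1 and Arrb2 had 0.00175 for r and 0.00872 for rho. That of Gnai2 and Kcnj3 had 0.00175 for r and 0.00218 for rho. Some PFC relations rested on number 10: between Gnai1 and Kcnj6, r was 0.84 over all 30 libraries (permutation p = 0.01205) with rho = 0.04 (permutation p = 0.8346), and r was -0.20 without the 2 farthest libraries. The difference between the regions in these relations was not tested.

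**Figure D4:**
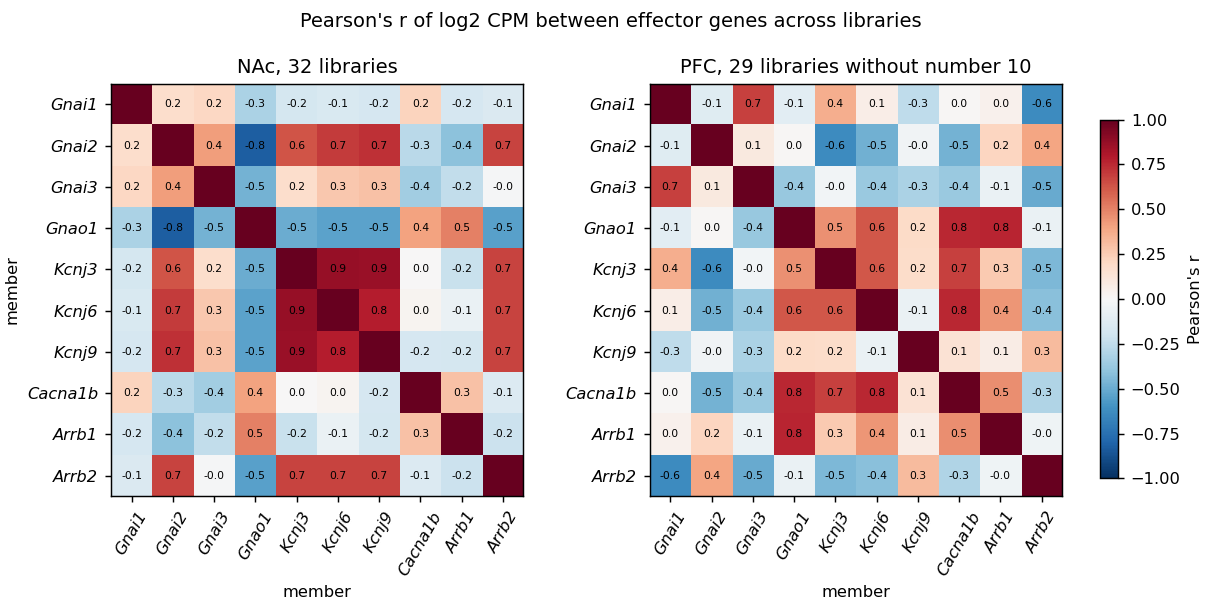
Pearson's r of log2 CPM between pairs of members, for 32 NAc libraries (left) and 29 PFC libraries (right), red for positive and blue for negative values. The 3 GIRK subunits form a block with Gnai2 and Arrb2 in NAc, and Gnao1, Cacna1b, Kcnj3 and Kcnj6 form one in PFC. In PFC, Kcnj3 runs opposite to Gnai2 (r = -0.63) and to Arrb2 (r = -0.45).

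The genes most like each member were taken from 12516 genes by the mean over both regions of Pearson's r of deviations from the treatment-by-sex means (30 PFC and 32 NAc libraries), given here as a description. Kcnj6 was matched most closely, by Mpdz (mean r 0.95) and Grin3a (0.94). Cacna1b was nearest to Pcnx (0.92) and Trio (0.90), Gnao1 to Cacna1i (0.89) and Dagla (0.87), Kcnj3 to Pcdh7 (0.88) and Apba2 (0.87), and Kcnj9 to Galnt9 (0.85) and Adam11 (0.82). Gnai1 was nearest to March1 (0.84) and Atp6ap2 (0.83), Gnai2 to Tkt (0.83) and Rpn2 (0.81), and Gnai3 to Rab31 (0.74) and Zfp24 (0.69). The arrestins had weaker neighbours, Zmiz2 (0.74) and Pou6f1 (0.73) for Arrb1 and Pcyt2 (0.74) and Frs3 (0.73) for Arrb2. No member had another member among its 2 nearest genes. The ranking included PFC number 10. Without it the PFC r of Kcnj6 was 0.92 with Mpdz (0.97 with number 10) and 0.87 with Grin3a (0.95). That of Gnai1 with March1 was 0.76 (0.88), and that of Gnai3 with Rab31 was 0.80 (0.79).

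Against saline, 0 of the 10 members were called at any stage of morphine in either region. The share of all genes called was 0.417% under chronic morphine, 0.0779% at 24 h and 0.00557% at 2 weeks in PFC, and 1.69%, 0.163% and 0.00544% in NAc. The 6 contrasts share their saline libraries within a region. At an unadjusted p under 0.05 the members numbered 1, 0 and 0 in PFC, where 7.91%, 3.01% and 5.04% of all genes were below it, and 1, 1 and 1 in NAc (15.2%, 12.1% and 6.44% of all genes). DESeq2 also called 0 members in each of these contrasts. In none of the 60 combinations of member, region and stage did the treated range lie apart from the saline range. The same count was not made over all genes, so it describes the members only. The 95% intervals of the 4 alpha subunits stayed between -0.60 and 0.36 in PFC and between -0.30 and 0.25 in NAc on the log2 scale over all stages, and those of both arrestins between -0.34 and 0.33 in PFC and between -0.45 and 0.28 in NAc.

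Gnai3 came nearest to a difference under chronic morphine. In PFC it had 35.0, 39.5 and 48.6 CPM under saline and 25.9, 32.5 and 40.5 CPM under chronic morphine, and 7 of the 8 treated libraries lay below the lowest saline library. The log2 difference was -0.34 ± 0.13 (unadjusted p = 0.0110, edgeR adjusted p = 0.434), with females at -0.42 ± 0.20 and males at -0.25 ± 0.15. In NAc Gnai3 had 33.2, 37.9 and 38.6 CPM under saline and 29.2, 32.7 and 38.2 CPM under chronic morphine, with 5 of 8 below the lowest saline library and a log2 difference of -0.15 ± 0.06 (unadjusted p = 0.0290, adjusted p = 0.261). In both regions the ranges overlapped and the adjusted p missed the threshold.

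Kcnj6 had the widest intervals. In PFC it was at 10.9, 15.9 and 21.98 CPM under saline and at 17.8, 26.2 and 35.2 CPM under chronic morphine, where 5 of 8 libraries lay above the highest saline library. The log2 difference was 0.58 ± 0.37 (unadjusted p = 0.126). Without PFC number 10, a library of the 2 weeks group that enters through the shared spread, it was 0.58 ± 0.23 (unadjusted p = 0.0169, edgeR adjusted p = 0.264). In the fit of all 30 PFC libraries Kcnj9 differed by -0.26 (95% interval -0.53 to 0.01) and Kcnj3 by 0.10 (95% interval -0.14 to 0.33), with the other sign for Kcnj3 without PFC number 26 (-0.03). Cacna1b had 74.5, 90.0 and 116 CPM under saline and 80.5, 120.5 and 147 CPM under chronic morphine in PFC (log2 difference 0.32 ± 0.16, unadjusted p = 0.0593), and none of these 3 passed the test.

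In NAc the remaining values with an unadjusted p under 0.05 belonged to the arrestins. Arrb2 at 2 weeks had 22.6, 28.5 and 31.04 CPM, with 7 of 8 libraries below the lowest saline library (saline 29.5, 32.8 and 38.8 CPM). Its log2 difference was -0.26 ± 0.10 (unadjusted p = 0.0118, edgeR adjusted p = 0.580). Arrb1 at 24 h had 362, 379 and 414 CPM, with 7 of 9 libraries above the highest saline library (saline 301, 351 and 373 CPM), and a log2 difference of 0.14 ± 0.07 (unadjusted p = 0.0446, adjusted p = 0.405). Saline held 2 of the 4 NAc libraries with a striatal score under 7 and the 2 weeks group held none. Arrb2 was lower and Arrb1 higher with a higher score, and the slope of Arrb1 was not called without numbers 6 and 25. With the striatal minus cortical marker score as a covariate, the log2 difference was -0.21 ± 0.07 for Arrb2 (edgeR adjusted p = 0.468). For Arrb1 it was 0.14 ± 0.06 (adjusted p = 0.213). The part of tissue composition in these 2 arrestin differences was not tested. GIRK intervals in NAc were wide: without numbers 6 and 25, Kcnj9 under chronic morphine was at -0.43 ± 0.17 (unadjusted p = 0.0209, adjusted p = 0.218) against -0.34 ± 0.17 with them. With the striatal minus cortical marker score as a covariate, Kcnj9 was at -0.19 ± 0.09 (unadjusted p = 0.0349, edgeR adjusted p = 0.253).

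**Figure D5:**
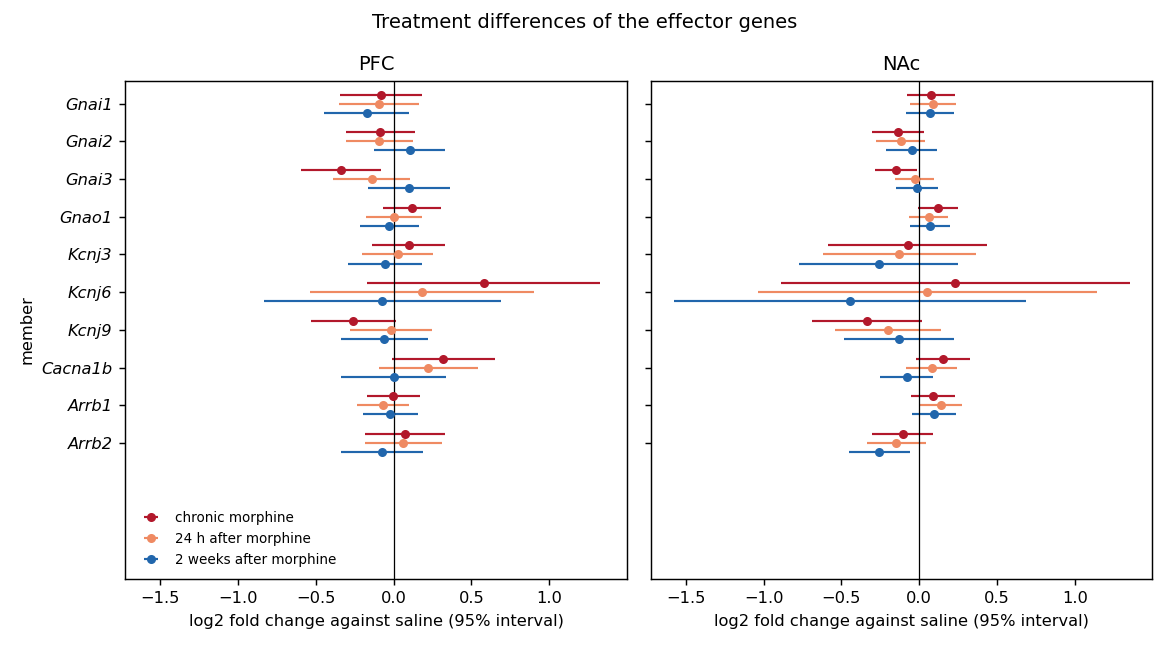
Log2 fold change against saline of each member with its 95% interval, for PFC (left) and NAc (right) at chronic morphine, 24 h and 2 weeks after morphine. Intervals are widest for Kcnj6, and in NAc those of the alpha subunits and arrestins are narrower than those of the GIRK subunits. No member passed the adjusted test.

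The morphine stages were also set against each other, in contrasts that give the saline libraries no weight. Those libraries still enter through the shared spread of the fit. Again 0 members were called by edgeR, in PFC for 24 h against chronic (0.0278% of all genes called), 2 weeks against chronic (0.824%) and 2 weeks against 24 h (0.15%), and in NAc for the same pairs (0.087%, 1.88% and 0.267%). In PFC Gnai3 had 25.9, 32.5 and 40.5 CPM under chronic morphine and 35.9, 42.8 and 53.6 CPM at 2 weeks. The log2 difference was 0.44 ± 0.12 (unadjusted p = 0.00118, edgeR adjusted p = 0.0831), and DESeq2 called it (0.45 ± 0.13, adjusted p = 0.0271), with adjusted p from 0.0271 to 0.128 over 4 alternatives. In NAc the corresponding difference of Gnai3 was 0.13 ± 0.06 (adjusted p = 0.366), and Cacna1b was at -0.23 ± 0.08 for 2 weeks against chronic (unadjusted p = 0.00794, adjusted p = 0.163). Unadjusted p was under 0.05 for 1 member in PFC for each of 2 weeks against chronic and 2 weeks against 24 h (Gnai3 in both) and for 2 members in NAc for 2 weeks against chronic, and for 0 in the other pairs. Of all genes, 13.8% and 8.50% were below 0.05 in the PFC pairs with Gnai3, and 12.8% in NAc for 2 weeks against chronic. DESeq2 called 0 members in the NAc pairs.

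Stage effects that differ between NAc and PFC were tested directly, and 0 members were called (0.0363% of all genes called; lowest member adjusted p = 0.986, 0 members with an unadjusted p under 0.05). For Gnai3, the member with the smallest unadjusted p in that test (0.109), the NAc minus PFC difference of the chronic effect was 0.20. Females and males differed in 0 members in PFC (0.0334% of all genes called) and 0 in NAc (0.0598%). Gnao1 in PFC was at -0.15 ± 0.06 for female minus male (unadjusted p = 0.0228, adjusted p = 0.946) and Cacna1b in NAc at -0.14 ± 0.06 (unadjusted p = 0.0233, adjusted p = 0.918). A stage effect that differs between the sexes was called for 0 members in PFC (0% of all genes called) and 0 in NAc (0.0544%), where Arrb2 had the only unadjusted p under 0.05 (0.0432, adjusted p = 0.517). DESeq2 likewise called 0 members in these tests. Over the 17 contrasts other than the regional one, 11 of 170 member tests had an unadjusted p under 0.05. The share of all genes below it ran from 3.01% to 15.2% per contrast. No tested gene of the 8 pathway lists was called in any of these 17 contrasts; Gnb3, a beta subunit, was not tested in the fits of PFC alone.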

How the data were processed

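The deposited mouse table holds raw read counts per Ensembl gene, made by the authors from total-RNA libraries. The submitters' processing notes name FastQC, Trimmomatic, cutadapt, STAR, HISAT2, RSEM and the builds GRCm38 and Rnor_6.0, without roles; whether counting used strand was not given in the sources used here. Libraries were grouped by the labels. Counts were tested with edgeR 4.0.16 (quasi-likelihood, TMM, filterByExpr, limma 3.58.1, R 4.3.3) in 1 fit per region, and in 1 fit of both regions for regional contrasts, with treatment-by-sex means averaged over sexes. Benjamini-Hochberg adjustment covered all genes tested, and a call is an adjusted p under 0.05. Log2 CPM used a prior count of 2. Correlations used 100000 permutations. Alternatives were no filter on low counts, DESeq2 1.42.0, median-of-ratios size factors, 2 surrogate variables (sva 3.50.0), marker-score covariates, single sexes, a replicate block and leaving out libraries. The scripts were tested on simulated data for chronic morphine against saline. Of the simulated 1.5-fold changes, 44% were recovered in PFC and 60% in NAc, and of the 2-fold changes 82% and 92%. The simulated libraries did not differ in tissue composition, so these shares need not hold for the members. False calls numbered 8 in PFC and 10 in NAc. All 10 members are named, and other pathway genes only when called, at most the 4 with the smallest adjusted p per contrast. The members and lists were chosen with earlier results of these data known.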

Additional observations from a re-analysis of the deposited data

Results flagged for a closer look

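Within each region and treatment, the log2 level of every member was screened for a library standing apart from the rest of its group (Dixon's 95% critical value, 80 groups), which chance flags in about 1 in 20 groups, and 5 were found. PFC number 10 of the 2 weeks group, the library with the lowest total, was lowest for Gnai1 at 99.5 CPM and for Kcnj6 at 0 CPM. PFC number 20, a female library of the 24 h group, was lowest for Kcnj3 at 127 CPM and for Cacna1b at 73.2 CPM. NAc number 7, a male saline library, was highest for Gnai1 at 258 CPM.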

How the results depend on the processing

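Differences that were called kept their direction under every alternative run. Values that were not called did not all do so: 24 of the 60 differences against saline had the other sign under at least 1 alternative other than leaving out 1 library, and none of the 60 was called under any of these. Among printed values, Arrb2 between the regions was 0.055 in saline libraries only, Kcnj3 in PFC under chronic morphine was -0.018 in females only, and it ranged from -0.033 (without PFC number 26) to 0.16 without 1 library. Kcnj6 in PFC at 2 weeks was -0.07, but 0.18 without PFC number 10, 0.17 with 2 surrogate variables and 0.30 in males only, and it ranged from -0.32 to 0.18 without 1 library; it also had the other sign without number 3 (0.05), 6 (0.01), 11 (0.02) or 14 (0.01). Between the morphine stages in PFC, DESeq2 called 1 member (Gnai3, 0.45) and edgeR called 0. Between the regions the count was 7, and 6 with DESeq2 or median-of-ratios size factors. Gnai2 lost its call with median-of-ratios size factors (-0.09, adjusted p = 0.0732), with DESeq2 (-0.09, adjusted p = 0.0736), in saline libraries only (-0.08, adjusted p = 0.455), where Gnai1 gained one (-0.20, adjusted p = 0.0412), and without PFC replicate 10 (-0.09). It kept the call without PFC number 10 and NAc numbers 6 and 25 together (-0.10, edgeR adjusted p = 0.0353). The same held with the replicate block (-0.11, adjusted p = 0.0384) and with no filter on low counts (-0.12, adjusted p = 0.0344). The cause was not tested. Leaving out 1 library at a time gave 6 to 7 members called between the regions and 0 to 0 against saline. Libraries of the 2 regions share numbers in the labels, which do not say what a number marks. A shared number had the same treatment and sex in both regions. Over 30 numbers the correlation of same-number deviations was 0.01 to 0.22 (median 0.07), and 14 of 30 PFC libraries correlated best with their own number, which points to pairing. The numbers were not taken as pairs because only 5 correlations were over 0.1, where every one was required. The p-values of the main regional fit therefore leave possible pairing out. With the replicate block, 7 members were called between the regions, as without it. The 0 of Kcnj6 in PFC number 10 lies under the other PFC libraries by more than its depth allows, since 3 counts there are 0.580 CPM. All 5 choroid plexus markers were also at 0 in that library, but these were low in PFC (median sum 10.96 CPM). Of them, Folr1 was at 0 in some saline, chronic morphine and 24 h libraries of PFC as well. The mean striatal marker level of PFC number 10 was 0.006 on the log2 CPM scale, against 3.03 to 4.01 in the other PFC libraries. The cause was not tested. The fits without PFC number 10 and without NAc numbers 6 and 25, and the slope on the striatal score, were chosen after seeing the data.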
